A study of Mus musculus with 12 samples.

Results

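The resting transcriptome of IMG cells was taken from the 4 libraries of scramble-treated cells, out of 12 libraries in the series. Resting here means treated with scramble, since the series holds no library of untreated cells. IMG cells are immortalised microglia of the mouse (microglia are macrophages that live in the brain), and the line is known to have been made with a retrovirus carrying oncogenes. The cells were wild type, of the C57Bl6/J strain and all of 1 passage, and they were sampled after 8 h with scramble, the control of an amyloid beta study whose treated libraries were not used here. RNA was taken on spin columns, and 2 ug of total RNA per sample entered a stranded mRNA library kit. The members were chosen by label alone, and they are called libraries 1 to 4 by the number in their titles. Nothing in the labels says that the 4 came from separate cultures, so the spread between them may be technical. With 1 group there is no comparison between conditions and no test, and levels are given as TPM, a scale divided by gene length and by library total, with the mean ± SD over 4 libraries and the rank of the mean among 41325 genes.

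Microglia arise from yolk sac progenitors and depend on the transcription factor PU.1 and on signalling through the CSF1 receptor. In the brain they carry a homeostatic programme that depends on local signals, TGF beta among them, and that is known to be lost in large part in culture. Around amyloid plaques they are known to take up a disease-associated state that is driven by TREM2 and APOE and is rich in lysosomal and lipid genes.

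The libraries held 13638721 to 16302252 counts, and between 13538 and 13948 genes had a count in each. A single count was worth about 0.0441 to 0.0487 TPM in a gene of median scale, so a gene without a count could have been at up to 0.132 to 0.146 TPM in such a library (3 counts, counting error only). Library 3 stood apart. Its log2(TPM + 1) values correlated at 0.910 to 0.950 with the other libraries, against 0.966 to 0.990 among the other 3. These correlations run across the 7482 genes with a mean of at least 10 TPM, which are not independent replicates. Long and AT-rich genes were lower in library 3. Every pair of libraries differed by more than counting noise.

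Of the 5 genes that mark the cells, 4 were present at moderate to high level, and Apoe was not. Csf1r (chromosome 18, 61105572 to 61132149), the receptor for CSF1 and IL-34, stood at 900, 876, 764 and 974 TPM in libraries 1 to 4, rank 146. Spi1 (chromosome 2, 91082390 to 91115756), which encodes PU.1, stood at 150, 242, 312 and 251 TPM, rank 513. Trem2 (chromosome 17, 48346401 to 48354147), the lipid-sensing receptor, stood at 147, 158, 197 and 147 TPM, rank 781. The range of Csf1r lay above that of Spi1, while those of Spi1 and Trem2 overlapped. Cx3cr1 (chromosome 9, 119901616 to 120069879), the fractalkine receptor, stood at 41.7, 44.3, 30.3 and 46.7 TPM, rank 3272, below Trem2 in every library. Apoe (chromosome 7, 19696109 to 19699188), the lipid carrier that brain microglia express strongly in the disease-associated state, stood at 2.71, 4.20, 4.29 and 2.88 TPM, rank 9456, from 163 counts over the 4 libraries. The median of the 15559 genes with a count was 8.76 TPM, so Apoe lay below it in every library and the other 4 markers lay above it in every library.

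**Figure D1:**
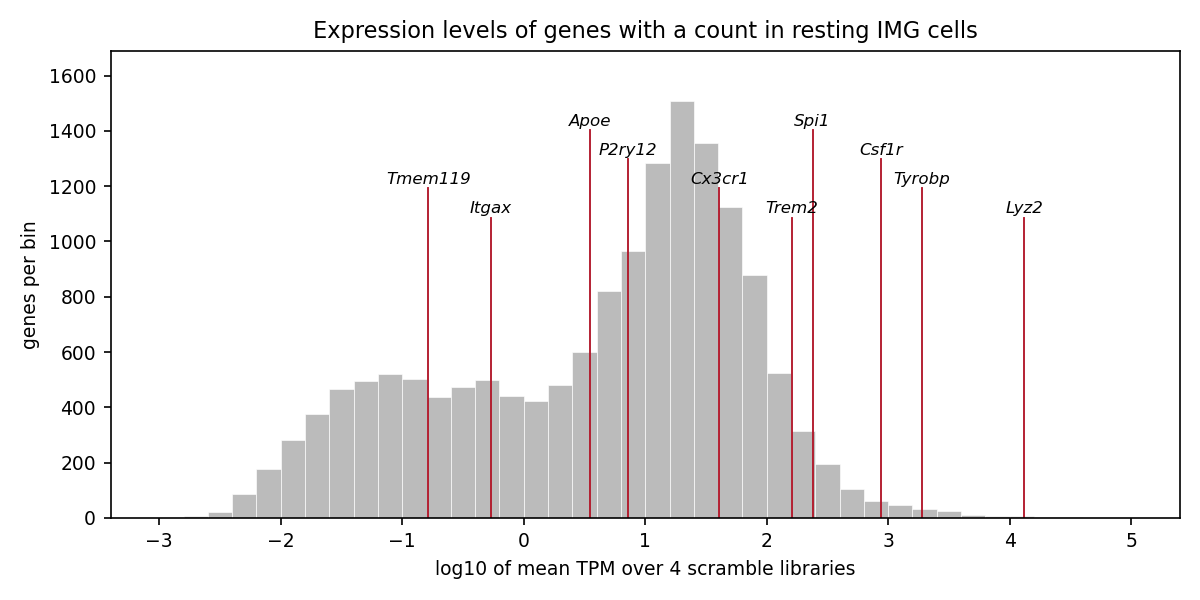
Number of genes by log10 of the mean TPM over the 4 scramble libraries, for the 15559 genes with a count, in bins of 0.2. Red lines mark 10 genes, from Tmem119 at 0.164 TPM through Apoe at 3.52 and Csf1r at 879 to Lyz2 at 13223 TPM.

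Of the 41325 genes of the table, 25766 had no count in any library and 10136 reached 1 TPM in every library. Without library 3 the last number was 10414. Of 21912 protein coding genes, 10210 had a mean of at least 1 TPM and 8760 had no count. At 10 TPM or more in every library there were 6356 genes (7275 without library 3), at 100 TPM or more 1054, and at 1000 TPM or more 111. The 10 highest genes held 19.4 ± 0.400% of all TPM, the 100 highest 44.8 ± 1.87% and the 1000 highest 73.2 ± 2.77%.

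The 30 highest genes were mostly mitochondrial transcripts, ribosomal protein genes and translation factors, with ferritin, lysozyme and a calcium-binding protein gene among them. Of the 30, 10 were mitochondrially encoded, led by the ATP synthase transcript mt-Atp6 at 33686, 33588, 21509 and 34570 TPM, rank 1. The cytochrome oxidase transcripts mt-Co2 (20346 ± 1149 TPM), mt-Co3 (19800 ± 1446) and mt-Co1 (19771 ± 2492) overlapped in range. Another ATP synthase transcript, mt-Atp8, ranged from 2950 TPM in library 3 to 20281 in library 1. Of the exon length of mt-Atp8, 21.1% overlaps a gene on its own strand. Nearly all 50-base words of mt-Atp6, mt-Co2 and mt-Co3 and 51.1% of those of mt-Co1 also lie in other annotated genes, so their counts are uncertain.

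Outside that group a ferritin gene stood highest. Fth1 (chromosome 19, 9982703 to 9985092), the ferritin heavy chain, stood at 22143, 27494, 41173 and 30781 TPM, rank 2. Ftl1, the light chain, stood at 8820, 10947, 16218 and 11900 TPM, rank 10. Both were lowest in library 1 and highest in library 3, and 58.4% of the 50-base words of Ftl1 lie in other genes. Lyz2 (chromosome 10, 117277331 to 117282321), the macrophage lysozyme, stood at 14429, 12896, 13274 and 12293 TPM, rank 8, with a spread much smaller than that of ferritin. Eef1a1, the elongation factor that carries aminoacyl tRNA, was at 15935 ± 936 TPM with 40.4% of its words in other genes, and Eef2, which moves the ribosome along, at 4748 ± 580. S100a4, a calcium-binding protein of motile cells, was at 5058 ± 668 TPM, and 51.7% of its exon length overlaps a gene on its own strand.

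Among the highest names, 2 are not messenger RNAs. Gm42418, annotated as a lincRNA and known to hold ribosomal RNA repeat sequence, stood at 17589, 12262, 18644 and 11504 TPM, rank 7, and 99.5% of its exon length overlaps a gene on the other strand. Mir6236 (chromosome 9, 110281287 to 110281409) stood at 7403, 10766, 6749 and 11209 TPM, rank 13. These counts fell on a gene of 123 bases in libraries made for messenger RNA, so they do not measure the mature miRNA. Its mature sequence in RefSeq (GRCm38.p6, plus strand, chr9:110281353-110281371), shown because the name ranks so high, has its seed in capitals.
mmu-miR-6236: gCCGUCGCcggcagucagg
Among the GENCODE M21 transcripts of all genes, this sequence was found on either strand only in Mir6236. Sequence outside those transcripts was not searched, so other sources of these counts were not tested.

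Most lineage transcription factors of macrophages were present. Of 28 listed, 23 reached 1 TPM in every library and 15 reached 10 TPM, with a median of 25.7 TPM. Mitf, a regulator of lysosomal and pigment genes, stood next to Spi1 at 203, 175, 78.6 and 166 TPM, rank 819. Its low value came in library 3. The other members of its family stood lower, Tfe3 at 28.6 to 35.6 TPM, Tfeb at 4.96 to 10.3 and Tfec at 2.39 to 3.39. The 4 ranges did not overlap, so the order was Mitf, Tfe3, Tfeb and Tfec in these libraries. Cebpa, a myeloid factor, was at 90.6 ± 17.2 TPM, and Fli1 was at 58.3 ± 14.1. Ikzf1, the Ikaros factor of blood lineages, was at 50.5 ± 14.1 TPM, Irf8, needed for microglia development, at 36.1 ± 3.88, and Runx1 at 14.1 ± 3.12. Maf, a bZIP factor of macrophages, was at 0.409 ± 0.0631 TPM. Sall1, the factor that sets adult microglia apart from other macrophages, had no count in any library, and its relative Sall3 had 9 counts.

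Homeostatic markers ranged from high levels to no count, with most between 1 and 100 TPM. Of 36 listed, 30 reached 1 TPM in every library, 17 reached 10 TPM and 7 reached 100 TPM, with a median of 11.5 TPM. Tyrobp, the signalling adaptor of TREM2, stood at 1949, 1725, 2156 and 1718 TPM, rank 65. Cst3, a cysteine protease inhibitor, stood at 972, 1615, 2316 and 1724 TPM, rank 80, lowest in library 1. Lgmn, the lysosomal legumain, was at 586 ± 10.1 TPM, and Itgam, the CD11b integrin, was at 199 ± 65.6. For Itgam 68.7% of the exon length overlaps a gene on its own strand. The TGF beta receptor genes Tgfbr1 (46.9 ± 19.2 TPM) and Tgfbr2 (30.3 ± 7.00) were also present.

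Several other genes known to mark microglia in the intact brain had a mean below 20 TPM or no count, unlike Csf1r, Itgam and Cx3cr1. P2ry12, the ADP receptor that steers process movement, stood at 10.4, 6.75, 3.60 and 7.94 TPM, rank 8222. Its relative P2ry13 was at 8.19 ± 0.822 TPM, and Gpr34, a lysophosphatidylserine receptor, at 8.24, 8.59, 3.79 and 7.00 TPM in libraries 1 to 4. Aif1, which encodes the stain marker IBA1, was at 9.26 ± 1.21 TPM and Fcrls, an Fc receptor-like gene, at 19.9 ± 1.49. Both means lay above the median of genes with a count (8.76 TPM), as did that of the complement gene C1qb. Tmem119, a membrane protein specific to resident microglia, had 8 counts in all and stood at 0.0759, 0.422, 0.0761 and 0.0832 TPM. Siglech, a sialic acid lectin, had 10 counts in all at 0.0569 to 0.231 TPM. Sparc had 1 count, and the fructose transporter gene Slc2a5 and the crystallin gene Crybb1 had none. The complement genes C1qa (3.49 ± 1.64 TPM), C1qb (13.1 ± 3.66) and C1qc (5.46 ± 1.66), which encode the chains of C1q and are among the strongest transcripts of brain microglia, all stood below 20 TPM in every library.

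**Figure D2:**
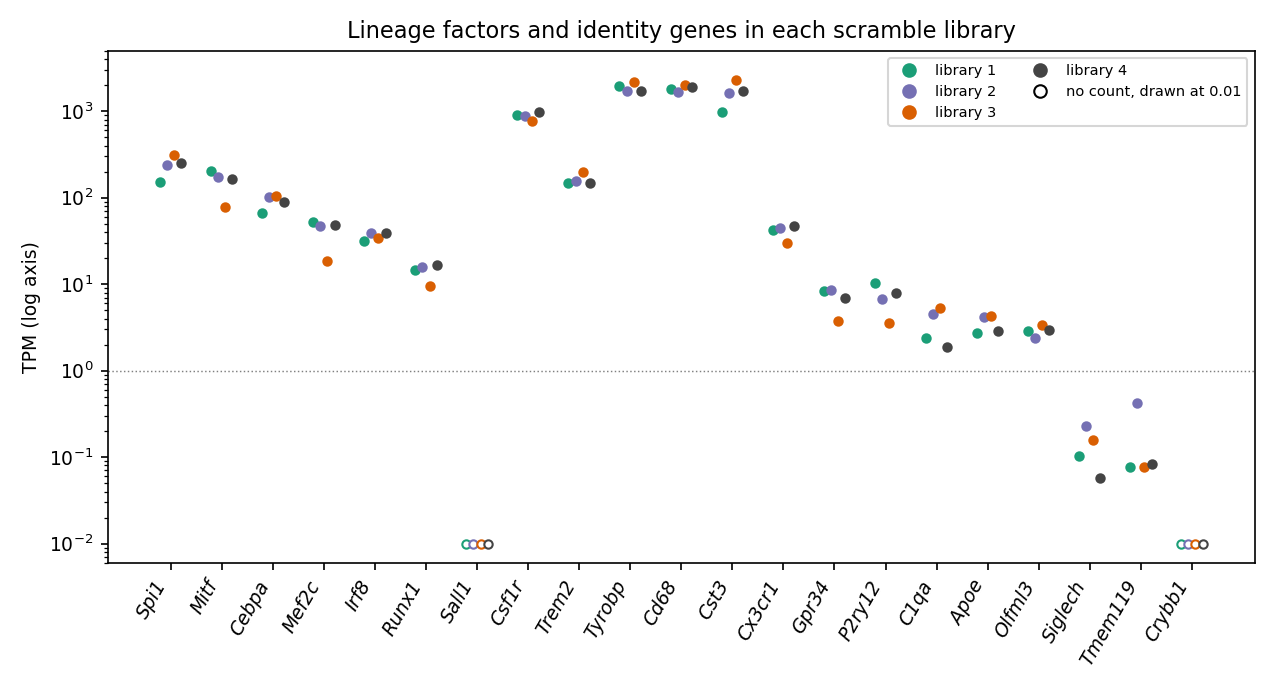
TPM of 21 lineage factors and identity genes in each of the 4 scramble libraries, on a log axis, coloured by library, with open circles at 0.01 for no count. Csf1r lies between 764 and 974 TPM and Tyrobp above 1700, whereas Tmem119 and Siglech lie below 0.5 TPM and Sall1 and Crybb1 have no count.

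General macrophage and leukocyte genes were present throughout and most were high. All 22 reached 1 TPM in every library and 16 reached 100 TPM, with a median of 411 TPM and a summed level of 25728 TPM in library 2 to 27468 in library 3. Cathepsin S (Ctss, 3293, 3003, 2945 and 2960 TPM, rank 34), Lgals3, a galectin of phagocytes (1996 ± 398), and Cd68, an endolysosomal glycoprotein (1846 ± 153), stood highest after Lyz2. The Fc receptor gamma chain Fcer1g was at 1204 ± 130 TPM and the lysosomal Laptm5 at 931 ± 76.9. Ptprc, the CD45 phosphatase, was lower at 60.3, 50.5, 19.0 and 45.8 TPM, with its low value in library 3, and Adgre1, which encodes F4/80, was at 188 ± 36.7. Lgals9 was the lowest at 4.86 ± 0.984 TPM.

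Genes of the disease-associated state were also high in these scramble-treated cells, with exceptions. Of 30, 27 reached 1 TPM in every library, 16 reached 100 TPM and 10 reached 1000 TPM, with a median of 181 TPM against 8.76 over all genes with a count. Of these 30 genes, 24 also stand in another list used here, such as the macrophage, lysosomal and lipid lists, and no brain tissue was analysed here. Gpnmb, a glycoprotein of lipid-laden macrophages, stood at 1363, 1289, 1041 and 1348 TPM, rank 103. Spp1, osteopontin, stood at 1656, 1624, 1067 and 1376 TPM, rank 93. Both were lowest in library 3. Lpl, lipoprotein lipase, was at 334 ± 86.9 TPM, Cd9 at 538 ± 84.3, Clec7a, the receptor for beta-glucan, at 82.8 ± 17.6 and Igf1, a growth factor, at 53.2 ± 16.3. At the other end Itgax, which encodes CD11c, was at 0.404 to 0.658 TPM from 56 counts, Axl, a receptor for apoptotic cells, had 12 counts, and the cholesterol hydroxylase gene Ch25h had none.

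The TREM2 pathway was present from receptor to kinase. Of 14 genes, 12 reached 1 TPM in every library and 8 reached 10 TPM, with a median of 39.1 TPM. After Tyrobp and Fcer1g came the phospholipase Plcg2 (211 ± 27.0 TPM), the phosphatase Inpp5d (118 ± 19.6) and the kinases Lyn (118 ± 17.1) and Syk (49.4 ± 8.80). Other receptors of the family stood below Trem2, with Trem3 at 6.01 to 10.3 TPM, Trem1 at 1.82 to 3.05 and Treml2 at 1.29 to 1.80. The ranges of Trem2, Trem3, Trem1 and Treml2 did not overlap. Treml1 had 22 counts and Treml4 28 counts.

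In the CSF axis the receptor of CSF1 was far above its ligands. Csf1, the ligand, stood at 4.79, 6.21, 4.44 and 6.24 TPM, rank 8743, and Il34, the other ligand, had 2 counts in all. Csf2ra, the GM-CSF receptor chain, was at 68.1 ± 16.6 TPM, and the common beta chain genes Csf2rb2 (50.4 ± 9.89) and Csf2rb (44.4 ± 7.66) overlapped in range. Csf3r, for G-CSF, was at 9.95 ± 2.47 TPM. The ligand genes Csf2 and Csf3 and the stem cell factor receptor gene Kit had no count.

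Most phagocytic and amyloid-binding receptor genes were present. Of 28, 21 reached 1 TPM in every library and 7 reached 100 TPM, with a median of 37.4 TPM. Sirpa, the receptor of the "do not eat me" signal CD47, was at 551 ± 97.3 TPM, Colec12, a scavenger receptor, at 258 ± 57.8 and Lrp1, an endocytic receptor of amyloid beta and APOE, at 217, 235, 106 and 275 TPM in libraries 1 to 4. Itgb2, the integrin partner of CD11b, was at 221, 209, 174 and 204 TPM and Fcgr3, an activating Fc receptor, at 194 ± 12.5. The scavenger receptor Msr1 was at 39.4 ± 9.85 TPM and Cd36 at 7.83, 7.45, 3.53 and 7.56 TPM. Of the receptor kinases for apoptotic cells, Mertk was at 5.53 ± 1.70 TPM, while Tyro3 had 1 count. Marco, Vldlr, Itgb3 and Timd4 had none.

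Toll-like receptors differed widely in level. Of 24 receptors and adaptors, 21 reached 1 TPM in every library and 13 reached 10 TPM, with a median of 17.2 TPM. Cd14, the lipopolysaccharide coreceptor, stood at 556, 610, 698 and 655 TPM, rank 192, and Tlr2, for lipopeptides, at 288, 303, 243 and 309 TPM, rank 419. Unc93b1, which carries endosomal receptors to their compartment, was at 393 ± 47.3 TPM. Among those endosomal receptors Tlr7 was at 146 ± 49.6 TPM, Tlr13 at 93.8 ± 26.0, Tlr9 at 16.0 ± 5.17 and Tlr8 at 15.7 ± 8.03. Tlr4, the lipopolysaccharide receptor, stood at 52.2, 41.2, 14.8 and 47.6 TPM, lowest in library 3, and its partner Ly96 at 9.46, 9.75, 6.91 and 9.81 TPM. The adaptor Myd88 was at 102 ± 3.09 TPM. Tlr5 was at 1.01 ± 0.465 TPM, and Tlr11 and Tlr12 had no count.

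Many inflammatory genes were at or near 0 in the resting state while a few chemokines were not. Of 35 cytokine, chemokine and effector genes, 17 reached 1 TPM in every library, and the median was 0.598 TPM. Mif, macrophage migration inhibitory factor, stood at 758, 1567, 2515 and 1848 TPM, with the low value in library 1, and 50.9% of its words lie in other genes. Grn, progranulin, was at 622 ± 59.2 TPM, Ccl9 at 246 ± 20.8, Ccl3 at 181 ± 13.7, Tgfb1 at 102 ± 33.1 and Ccl2 at 57.4 ± 2.87. Tnf stood at 28.6, 30.9, 17.5 and 18.8 TPM, rank 4845, and Il18 was at 20.8 ± 2.85. Il1b had 10 counts in the 4 libraries together, Il10 had 5, Il6, Il1a, Ifnb1 and the nitric oxide synthase gene Nos2 had 1 each, and Il12b, Il12a, Cxcl9, Cxcl1, Ccl12 and Arg1 had none.

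Most interferon response genes were low, with 3 abundant members. Of 32 genes, 20 reached 1 TPM in every library and 3 reached 100 TPM, with a median of 2.43 TPM. Ifitm3 (759 ± 142 TPM) and Ifitm2 (748 ± 102), which block virus entry, and Bst2, tetherin (181 ± 51.1), were those 3, and 48.5% of the words of Ifitm2 lie in another gene. Isg15, a ubiquitin-like modifier, was at 4.44 ± 0.536 TPM, Irf7 at 1.94 ± 0.330, Ifit1 at 1.39 ± 0.510 and Rsad2, viperin, at 1.06 ± 0.499. Mx1 had 4 counts and Zbp1 none. The receptor genes Ifnar1 (43.4 ± 10.7 TPM) and Ifnar2 (52.5 ± 4.78) were both present.

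Class I presentation genes were high and class II genes were not, apart from the invariant chain. B2m, the class I light chain, stood at 2190, 2093, 2166 and 2103 TPM, rank 55, with H2-D1 at 662 ± 85.4 and H2-K1 at 437 ± 46.8. Cd74, the class II invariant chain, stood at 366, 352, 518 and 416 TPM, rank 282. In the same libraries the class II genes H2-Ab1 and H2-Eb1 had 4 counts and 1 count, H2-Aa had none, and Ciita, the class II transactivator, had 39 counts. The costimulatory genes Cd86 (15.2 ± 2.83 TPM), Cd80 (7.17 ± 2.49) and Cd40 (0.936 ± 0.371) were low. Of these 20 genes, 13 reached 1 TPM in every library.

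Complement receptors stood above most complement components. Cfp, properdin, was at 211 ± 42.3 TPM, C3ar1, the C3a receptor, at 157 ± 33.6 and C5ar1 at 64.8, 62.7, 64.9 and 79.2 TPM. C3, the central component, was at 16.8 ± 3.77 TPM, C4b had 8 counts, Cfb had 1, and Cfd, Serping1 and Cd55 had none. Of 19 genes, 10 reached 1 TPM in every library.

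Many chemokine and purine receptor genes were below 1 TPM. Cxcr4 was at 88.5 ± 17.1 TPM, above Cx3cr1, and Ccr1 at 2.98 ± 0.655. Of 16 chemokine receptors, 6 reached 1 TPM in every library and Cxcr6, Ackr3, Ccr7, Ccr6 and Cmklr1 had no count. P2ry6, the UDP receptor of phagocytosis, was at 42.7 ± 5.23 TPM, the ectonucleotidase Entpd1 at 33.2 ± 4.97 and P2rx7, the ATP-gated channel, at 28.8 ± 7.51. These 3 stood above P2ry12 with no overlap. The adenosine receptor gene Adora1 and the channel gene P2rx1 had no count.

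All 41 lysosomal genes reached 1 TPM in every library, 40 reached 10 TPM and 20 reached 100 TPM, with a median of 129 TPM against 20.3 over the 10774 genes with a mean of at least 1 TPM. Ctsd, the aspartic protease cathepsin D, stood at 1762, 1642, 2129 and 1865 TPM, rank 68, and 34.4% of its exon length overlaps a gene on its own strand. Psap, the precursor of the saposins, was at 1518 ± 36.4 TPM, Ctsb at 1321 ± 67.2, Ctsz at 1259 ± 186 and the membrane protein Lamp1 at 1003 ± 72.4. The glycosidases Hexa (416 ± 7.44 TPM) and Gusb (403 ± 14.7) varied little between libraries. The acid lipase Lipa stood at 510, 445, 264 and 438 TPM, and the proton pump subunit Atp6v1a at 345, 308, 154 and 316 TPM, both lowest in library 3. Cathepsin H (Ctsh, 7.04 ± 0.463 TPM) was the lowest of the 41.

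Some lysosomal genes hold a sequence motif that was not used to choose them. The MiT factors, the family of Mitf and Tfeb, are known to bind the E-box CACGTG, most strongly within the palindrome TCACGTGA. Of the 41 genes, 33 matched a window of RefSeq (GRCm38.p6) that runs from 250 bases before to 50 bases after the start. TCACGTGA, which reads the same on both strands and contains CACGTG, was found in 6 of the 33 (18.2%), against 266 of 20004 genes with a window (1.33%). CACGTG was found in 13 of 33 (39.4%) against 8.79% of all, so 20 of the 33 held neither. CACGTG was also found in 14.3% of the genes over 100 TPM, in 5 of 16 translation factors and chaperones (2 with TCACGTGA) and in 3 of 7 dendritic cell markers. With the first window of each gene alone the numbers were 5 and 11 of 33. The share of genes with TCACGTGA also rose with level over all genes, from 0.449% of those with no count to 2.71% of those over 100 TPM, and the median number of CpG pairs in the window was 4 in the former and 22 in the latter. Sites before the start are shown for 5 genes, with the palindrome in capitals and in the direction of the gene, because they place the letters in the genes whose levels are given.
Ctsd, chr7:142387908-142387937, minus strand: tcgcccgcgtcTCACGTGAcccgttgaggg
Ctsa, chr2:164833749-164833772, plus strand: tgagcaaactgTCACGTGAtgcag
Atp6v1a, chr16:44139373-44139402, minus strand: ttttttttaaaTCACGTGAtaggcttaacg
Gla, chrX:134601147-134601255, minus strand: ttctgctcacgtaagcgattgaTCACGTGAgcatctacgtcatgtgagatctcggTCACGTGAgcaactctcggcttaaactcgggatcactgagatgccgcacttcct
Mcoln1, chr8:3500462-3500491, plus strand: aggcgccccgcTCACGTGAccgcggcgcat
The stretch of the alpha-galactosidase gene Gla holds the palindrome in 2 places. In the subunit gene Atp6v0d1 the palindrome lies at or after the start, as does 1 more site in Ctsa, and these are not shown. The 6 genes ranged from 12.7 TPM for the calcium channel gene Mcoln1 to 1849 TPM for Ctsd, with a median of 250 TPM, and the 20 without CACGTG ranged from 14.04 to 3050 TPM, with a median of 164. The ranges overlap, and a match of letters is not a bound site.

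**Figure D3:**
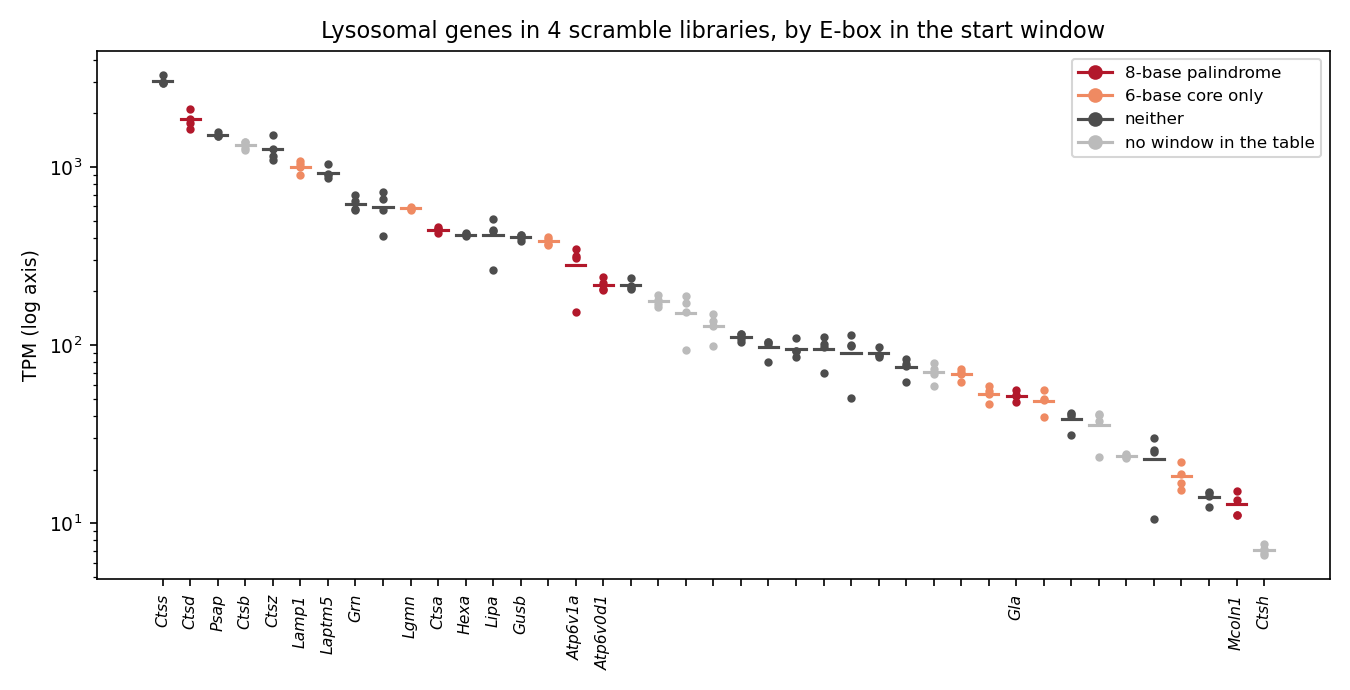
TPM of 41 lysosomal genes in the 4 scramble libraries on a log axis, dots for libraries and bars for means, coloured by the E-box found in the RefSeq window around the start, with names for the genes given in the text. Genes with the palindrome run from Mcoln1 at 12.7 to Ctsd at 1849 TPM, within a range from Ctsh at 7.04 to Ctss at 3050 TPM.

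Most lipid genes were present, with Apoe among the lowest. Of 30, 27 reached 1 TPM in every library and 6 reached 100 TPM, with a median of 35.9 TPM. The desaturase Scd2 stood at 502, 444, 234 and 465 TPM, rank 285. Fabp5, a fatty acid carrier, was at 201 ± 16.6 TPM and Plin2, the lipid droplet coat protein, at 153 ± 8.11. The cholesterol exporters Abcg1 (76.2 ± 13.6 TPM) and Abca1 (28.4 ± 14.8) and the LXR genes Nr1h2 (37.0 ± 8.55) and Nr1h3 (18.8 ± 2.25) were all above Apoe in every library. Abca1 stood at 38.3, 27.6, 7.77 and 39.8 TPM, so that library 3 set its low end. Apoc1, a neighbour of Apoe, had 6 counts. Apoc2, another neighbour, was at 17.3, 17.3, 30.6 and 19.4 TPM, but 79.5% of its exon length overlaps another gene on the same strand and its counts are uncertain.

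Gamma-secretase genes had counts and beta-secretase genes had none. App, the amyloid precursor gene, stood at 55.0, 56.8, 38.4 and 61.8 TPM, rank 2587. Itm2b, which encodes BRI2, was at 334 ± 6.95 TPM, and the precursor's relative Aplp2 at 174 ± 30.5. The gamma-secretase subunits Aph1a (172 ± 13.2 TPM), Psenen (120 ± 16.3), Ncstn (63.8 ± 12.0) and Psen2 (59.1 ± 5.75) were all present, as was the alpha-secretase Adam10 (98.1 ± 37.7). Other genes hold 39.5% of the words of Aph1a and 23.4% of those of Psenen. Bace1 and Bace2, the beta-secretase and its relative, had no count in any library. Ide, an enzyme that degrades amyloid beta, was at 135, 122, 71.0 and 130 TPM, and Mme, neprilysin, had none. Of the 24 mouse counterparts of Alzheimer risk genes, 21 reached 1 TPM in every library, with a median of 34.6 TPM. Bin1 was at 144 ± 14.5 TPM, Cd33 at 72.9 ± 28.8, Picalm at 39.7 ± 11.5, Sorl1 at 28.0 ± 9.67 and Clu, clusterin, at 10.7 ± 0.504. Epha1 and Fermt2 had no count.

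Iron genes other than ferritin ranged from no count to under 200 TPM. Tfrc, the transferrin receptor, stood at 191, 157, 68.6 and 160 TPM, rank 891, Hmox1, heme oxygenase, was at 95.5 ± 5.88 and the iron exporter Slc40a1 at 3.67 ± 1.18. Of 14 genes, 11 reached 1 TPM in every library, and Ftmt, mitochondrial ferritin, had no count. Of 27 oxidant defence genes, 25 reached 1 TPM and 17 reached 100 TPM, with a median of 136 TPM. Txn1, thioredoxin, led at 1044 ± 110 TPM. The peroxidase genes Prdx1 (772 ± 72.8 TPM), Gpx1 (727 ± 172) and Gpx4 (363 ± 77.2, with 34.7% of its words in other genes) stood high, as did the NADPH oxidase subunit Cybb (344 ± 112). Mt1, a metallothionein, was at 189, 301, 500 and 343 TPM. The cystine transporter gene Slc7a11 (1.02 ± 0.412 TPM) and Nqo1 (1.02 ± 0.256), both targets of NRF2, were the lowest.

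Most glycolysis and respiration genes were high. Of 21 glycolysis genes, 19 reached 10 TPM in every library, led by Gapdh (2602 ± 343 TPM), Pkm (1919 ± 115) and Ldha (1484 ± 76.6). Slc2a1, the glucose transporter, was at 50.2 ± 4.96 TPM, Slc2a3 at 16.8 ± 4.26, and Ldhb, the other lactate dehydrogenase, had 1 count. All 31 nuclear genes of the respiratory chain reached 10 TPM and 25 reached 100 TPM, with a median of 219 TPM. The ATP synthase genes Atp5a1 (1060 ± 27.6 TPM) and Atp5b (895 ± 28.6) led, and Ndufs1 (50.2 ± 12.3) was the lowest. Cytoskeletal genes had a median of 478 TPM over 30 members, with S100a4 highest, Actb at 2530 ± 334, Tmsb4x, thymosin beta 4, at 1873 ± 219, and the actin-severing Cfl1 at 1866 ± 140. The 42 ribosomal protein genes had a median of 1828 TPM (1629 without library 3), led by Rplp1 at 3966, 8657, 12248 and 8980 TPM, although 60% of its words lie in another gene. The counts of Gapdh and Pkm are uncertain in the same way, with 25.1% and 25.8% of their words in other genes.

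**Figure D4:**
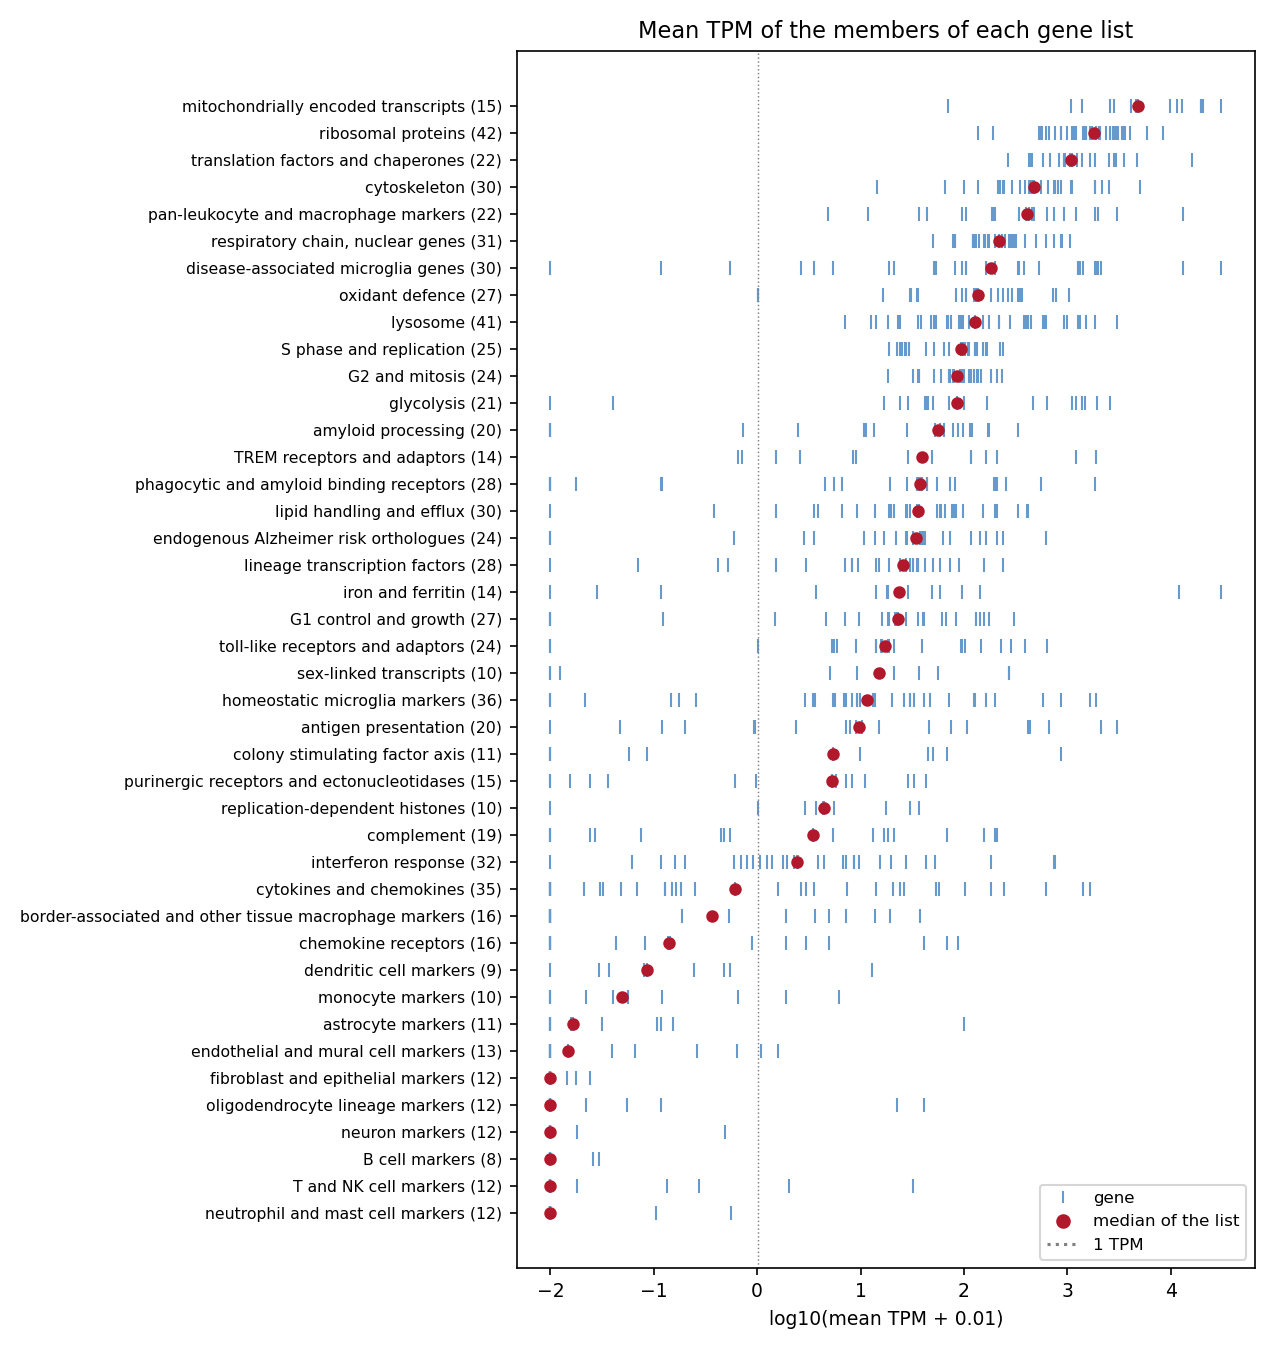
Mean TPM of each member (blue ticks) and median (red dot) for 42 gene lists, ordered by median, on a log10 scale with 0.01 added, with the number of members in brackets. Mitochondrial transcripts lead with a median of 4846 TPM, the lysosome stands at 129 TPM, cytokines at 0.598 TPM, and 6 lists of other cell types have a median of 0.

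The resting cells carried the transcripts of dividing cells. All 24 genes of G2 and mitosis and all 25 of S phase reached 1 TPM in every library, with medians of 86.1 and 94.2 TPM. Mki67, the proliferation marker, stood at 293, 252, 111 and 274 TPM, rank 526, Hmgb2 was at 208 ± 37.8, the mitotic activator Cdc20 at 183 ± 7.60 and Top2a at 145 ± 46.5. Mcm6, a helicase subunit, was at 237 ± 18.5 TPM and Pcna, the replication clamp, at 225 ± 19.7. In bulk RNA, fewer cells in cycle and less RNA per cell cannot be told apart. The kinase Cdk4 was at 303 ± 11.1 TPM, the inhibitor Cdkn1a at 155 ± 12.0, Ccnd1 at 132 ± 22.3 (23.4% of its exon length overlaps a gene on the other strand) and Trp53 at 129 ± 4.97. The inhibitor genes Cdkn2a and Cdkn2b had no count, nor had Mycn.

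Araf, a RAF kinase gene, stood at 26.1, 22.0, 18.4 and 19.4 TPM, above Braf at 9.54, 7.77, 3.10 and 7.75 TPM with no overlap of the ranges. Myc, a transcription factor of growth, stood at 1.94, 1.44, 0.584 and 1.98 TPM, rank 10420. Viral transcripts were not analysed here.

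Transcripts of both sex chromosomes were present, without Xist. Eif2s3y (46.7, 41.9, 25.4 and 33.1 TPM), Ddx3y (34.1, 25.8, 5.39 and 18.8 TPM) and Uty (5.05 ± 2.33 TPM), all on the Y chromosome, had counts in every library, Kdm5d had none, and Xist, the X-inactivation RNA, had 1 count in all.

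Markers of other cell types were at or near 0 with a few named exceptions. Of 12 neuron markers 10 had no count, and the list summed to 0.139 to 0.748 TPM, nearly all from Map2. Of 12 markers of neutrophils and mast cells 10 had no count (sum 0.253 to 1.32 TPM), of 12 of fibroblasts and epithelia 9 (sum 0 to 0.0748 TPM) and of 8 of B cells 6 (sum 0 to 0.141 TPM). The lowest sums of the neuron, endothelial, astrocyte, oligodendrocyte, T and NK cell, monocyte and border-associated lists came in library 3. Endothelial and mural markers summed to 2.50 to 4.50 TPM, with Cldn5, Tek, Rgs5 and Vtn at no count. Astrocyte markers summed to 93.8 to 108 TPM, of which Aldoc, a glycolytic enzyme, held 100 ± 5.82 TPM, while Aqp4 and Sox9 had no count and Gfap had 2. Oligodendrocyte markers summed to 49.1 to 70.3 TPM, from Mbp (41.0 ± 9.89 TPM) and Cnp (22.3 ± 1.86), with Mog, Olig1, Olig2 and Sox10 at no count. T and NK cell markers summed to 22.7 to 42.1 TPM, of which the interleukin 7 receptor gene Il7r held 31.8 ± 8.17 TPM, and no CD3 or CD8 gene had a count.

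Other myeloid lineages were low as well. Monocyte markers summed to 6.31 to 10.6 TPM, mostly from Nr4a1, with Ly6c1, Ly6c2 and Chil3 at no count and Ccr2 at 1.88 ± 0.653 TPM. Dendritic cell markers summed to 12.99 to 16.01 TPM, of which the lectin gene Clec10a held 12.8 ± 1.53 TPM. Markers of border-associated and other tissue macrophages summed to 83.6 to 92.5 TPM. Pf4 (38.0 ± 3.55 TPM), Stab1 (20.4, 20.4, 14.1 and 21.3 TPM) and Ms4a7 (13.6 ± 1.81) carried most of it. Mrc1, the mannose receptor CD206, was at 4.97 ± 1.57 TPM and Siglec1 at 8.78, 8.01, 3.33 and 8.47 TPM, while Lyve1, Cd163, Cd209f, Clec4f, Timd4, Marco and Gata6 had no count.

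The libraries differed from each other in a way that touched the lists unequally. Among 7482 genes with a mean of at least 10 TPM, 2353 (31.4%) were more than 1.5-fold lower in library 3 than the mean log2(TPM + 1) of the other 3, and 269 (3.6%) were higher. For library 1 the numbers were 319 (4.26%) lower and 811 (10.8%) higher, but without library 3 they turned to 258 lower and 87 higher. For library 2 they were 32 (0.428%) and 73 (0.976%), and for library 4 they were 65 (0.869%) and 80 (1.07%), which turned to 115 and 80 without library 3. The median over all these genes was -0.30 in library 3 and 0.19 in library 1 on that log2 scale. With counts scaled by TMM in edgeR these medians were 0.07 and -0.03, and the split turned to 1205 lower and 1255 higher in library 3 and to 657 lower and 276 higher in library 1.

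Read against those medians, some lists stood apart in library 3 under both scalings. Over all 7482 genes, 2353 were lower and 269 higher on TPM, and 1205 lower and 1255 higher under TMM. Of 24 G2 and mitosis genes, 13 were past 1.5-fold lower on TPM and 6 under TMM, with medians of -0.61 and -0.24 and none higher. Of 17 toll-like receptor genes with a mean of at least 10 TPM, 10 and 6 were lower, with medians of -0.62 and -0.27. Of 42 ribosomal protein genes, 13 and 38 were higher, with medians of 0.45 and 0.83, and 1 was lower under each. Of 31 nuclear respiratory chain genes, 7 and 22 were higher, with medians of 0.34 and 0.72, and 1 was lower on TPM and none under TMM. Lysosomal genes had medians of -0.03 and 0.34, above those of all genes under each scaling. Lineage factors had medians of -0.39 and -0.03, close to those of all genes.

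Gene length and base composition moved with the same differences, and their part was not tested. With these genes in 5 groups of like size, library 3 had a median of 0.22 in the group with the shortest exons and of -0.86 in that with the longest. From the most AT-rich to the most GC-rich group it went from -0.76 to 0.10. Library 1 ran the other way, from -0.05 to 0.43 with length and from 0.45 to -0.19 with GC content. Libraries 2 and 4 also rose with length, from -0.003 to 0.23 and from -0.07 to 0.23. With GC content library 2 went from 0.25 to 0.07 and library 4 from 0.08 to 0.09. Library 3 is part of the mean that each of them was set against, so its own trend enters theirs with the sign reversed. Their trends without library 3 are not given here.

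**Figure D5:**
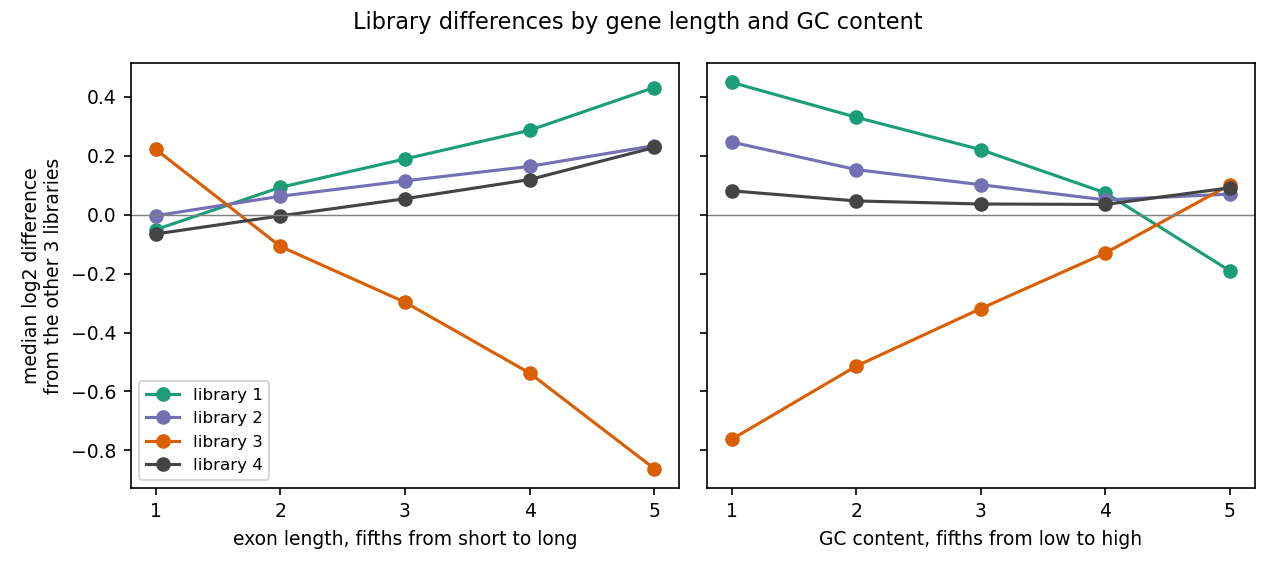
Median log2 difference of each library from the mean of the other 3 over genes with a mean of at least 10 TPM, in 5 groups by exon length (left) and GC content (right). Library 3 falls from 0.22 to -0.86 with length. Libraries 1, 2 and 4, each set against a mean that includes library 3, rise with length, library 1 from -0.05 to 0.43.

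The most and least variable genes showed the range of this spread. The least variable genes with a mean of at least 10 TPM included Gpr108, Dnal4, Fen1, Ctnnbip1, Ppm1g, Imp4, Oaz2, Mrpl9 and Sord, of which Fen1, Ctnnbip1 and Sord share words with other genes. Gpr108, a Golgi membrane protein gene, stood at 51.6, 51.6, 52.1 and 52.1 TPM, and Ppm1g, a phosphatase gene, at 137, 137, 134 and 136. The 10 most variable genes held 7 short structural RNA genes (n-R5s130, Rnu3b1_2, Rnu3b2_2, Rnu3b3_2, Rnu3b4_2, Rnu3a_1 and Rnu1b2) and 1 histone gene, Hist2h2aa2, each with under 200 counts in all. The other 2 were Scand1 at 2.08, 50.4, 87.5 and 27.4 TPM and Ccdc85b at 1.73, 39.4, 69.2 and 33.2 TPM, from 9 and 6 counts in library 1. Other genes hold 29.7% of the words of Scand1 and 23.0% of those of Ccdc85b. Of their exon length, 40.4% and 24.7% overlaps a gene on the other strand, so the counts of both are uncertain.

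Some genes have near-identical copies, and 1 such pair changed places between libraries. Timm23 (chromosome 14, 32180162 to 32201898), a mitochondrial import channel gene, stood at 61.3, 227, 257 and 231 TPM, and Gm10273 (chromosome 10, 59395632 to 59396757), which shares 94.9% of its words with it, at 269.8, 12.7, 23.2 and 6.16 TPM. Library 1 was low in the former and high in the latter. Rps12 was at 215, 56.8, 65.0 and 58.0 TPM and its copy Rps12-ps3, all of whose words lie in Rps12, at 5151, 6083, 8676 and 5859 TPM. Rpl10 was at 326, 284, 69.0 and 87.5 TPM and Rpl10-ps3 at 4939, 4563, 7006 and 5141 TPM, so the 2 copies held more than the genes they resemble in every library. The sources used here do not give how reads that match several places were assigned, and the levels of all 6 are uncertain.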

How the data were processed

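Poly(A) RNA of scramble-treated IMG cells was sequenced in 4 libraries. The authors deposited 1 table with TPM, RPKM and total counts per gene, and the submitters' processing notes name mm10. Aligner, counting rule and use of strand: not given in the sources used here. TPM values were used as deposited, counts served for depth, and RPKM as an alternative. The deposited lengths were a constant 1.07 times the exon length of GENCODE M21 within 1% for 95.1% of 9733 genes. Treated columns (16) were not used, and 20 per-sample columns in all were left out.

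Means and SDs were computed in Python 3.11.15 with pandas 2.3.3. Library differences were log2(TPM + 1) against the mean of the other 3, over genes with a mean of at least 10 TPM, past 1.5-fold, with TMM scaling in edgeR 4.0.16 (R 4.3.3) as an alternative. The script was tested on simulated data with counting error only, so that test does not cover the larger differences between these libraries. Genes that share at least 20% of their 50-base words or exon length with another gene are uncertain: of 230 named genes with this check, 39 share words, 11 overlap on the same strand and 8 on the other. Some results are not reported here.

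The members and the 42 gene lists were chosen with earlier results of these data known. Named were the 30 highest genes, 5 markers, up to 6 highest members of each list with its lowest member and those without a count, and the 10 most and 10 least variable genes, where reported. Timm23 and Gm10273 were named as a pair. Any other gene named was chosen after its values were seen. Intervals cover counting error only.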

Additional observations from a re-analysis of the deposited data

Results flagged for a closer look

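A library was marked where its gap to the nearest other value passed the critical share of the range of the 4 libraries (Dixon's criterion). Chance marks about 1 in 20 groups, and 7.98% of the 7482 genes with a mean of at least 10 TPM were marked. Library 3 was the low one in 389 of them and the high one in 103.

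Of 318 named genes, 27 were marked. Library 3 was low for mt-Atp6 (21509 TPM), Colec12 (171 TPM), Clec7a (56.5 TPM), Stab1 (14.1 TPM), Ly96 (6.91 TPM), Cd36 (3.53 TPM) and Siglec1 (3.33 TPM). It was high for Txn1 (1208 TPM) and Apoc2 (30.6 TPM). Library 1 was high for Ctss (3293 TPM), Gm10273 (269.8 TPM) and Rps12 (215 TPM) and low for Timm23 (61.3 TPM). Library 4 was high for C5ar1 (79.2 TPM) and Ciita (0.303 TPM). Library 2 was high for Tmem119 (0.422 TPM) and low for Axl (0 TPM), which have 8 and 12 counts in all.

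Genes with 1 count in all are marked by construction in the library that holds it. These were Ifnb1 (0.234 TPM), Il1a (0.0890 TPM), Sparc (0.0464 TPM) and Xist (0.00979 TPM) in library 1, Il6 (0.0804 TPM) and Nos2 (0.0443 TPM) in library 2, H2-Eb1 (0.149 TPM) in library 3, and Ldhb (0.123 TPM), Cfb (0.0682 TPM) and Tyro3 (0.0311 TPM) in library 4.

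Of 16 quantities per library, 2 were marked, both in library 3. Mitochondrially encoded genes held 11.1% of TPM there, and ribosomal protein genes 12.4% of counts.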

How the results depend on the processing

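The share of the 100 highest genes was 37.2% without mitochondrially encoded genes and 25.0% on counts, against 44.8%. Of the 30 highest genes, 18 stayed among the 30 highest on CPM. The number of genes past 1.5-fold in library 1 was 1130, and it was 166 at 2-fold, 2181 with no filter and 345 to 1933 when 1 other library was left out, with 345 without library 3. For library 2 it was 105, and 27, 536 and 98 to 756. For library 3 it was 2622, and 1051, 4294 and 2297 to 2845. For library 4 it was 145, and 51, 577 and 195 to 585. At 2-fold the split turned to 91 lower and 75 higher in library 1, 18 and 9 in library 2 and 41 and 10 in library 4, and with no filter to 305 and 272 in library 4. Fewer genes pass the higher fold and more enter without the filter, and the cause of the other changes was not tested. The number of genes at 1 TPM or more in every library stayed between 9066 and 10687. Of 40 list medians, 27 moved by more than 1 SD when TPM was rescaled without mitochondrially encoded and ribosomal protein genes. When 1 library was left out, 1 of 168 moved. Neither count measures how stable a list is. Rescaling raised medians by a like factor, from 25.7 to 36.6 TPM for lineage factors and from 129 to 184 for lysosomal genes. Leaving out 1 of 4 libraries can move a mean by only part of its SD. Of 35 gene ranks, 28 moved on CPM. No paired analysis was possible because the report holds 1 group. Depth limits genes of median scale below about 0.146 TPM. For short genes the limit is higher, as 1 count of Ifnb1 was worth 0.234 TPM in library 1.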
